A study of Homo sapiens with 6 samples.

Results

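The 9 genes described here are the signal transducers and activators of transcription STAT2, STAT3, STAT5A, STAT5B and STAT6 and the inducible feedback inhibitors SOCS1, SOCS2, SOCS3 and CISH. They were chosen by name from the 60662 genes of a deposited count table, and each had 1 row in it. The libraries were made from DU-145 cells, an established line from a human prostate carcinoma, carrying the stable, tetracycline-controlled hairpin vector tet-MUCshRNA against MUC1. In the DOX-positive group (n = 3) cells received doxycycline (DOX) for 7 days, and in the DOX-negative group (n = 3) they received vehicle for 7 days. Both groups then received IFN-gamma at 10 ng/ml for 24 hours, and the question was what induction of the hairpin changed in cells that had all seen IFN-gamma. All libraries came from 1 cell line, and cells without IFN-gamma, or with DOX and a control hairpin, were not analysed here. A difference therefore measures DOX and the hairpin together, not the response to IFN-gamma.

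STAT proteins wait in the cytoplasm until a cytokine or growth factor receptor is bound by its ligand. Janus kinases (JAKs) on the receptor then phosphorylate them, they pair through their SH2 domains, enter the nucleus and bind DNA. STAT2 works with IRF9 in the complex that type I and type III interferons activate, STAT3 is used by the gp130 receptors for interleukin-6 and its relatives, STAT5A and STAT5B by growth hormone, prolactin and several interleukins, and STAT6 by interleukin-4 and interleukin-13. SOCS1, SOCS2, SOCS3 and CISH are themselves induced by STATs and close the loop, either by binding JAKs and receptors or, through a SOCS box, by recruiting a ubiquitin ligase.

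Sequences that STATs can bind were searched for in the members' promoters. RefSeq windows of 250 bases before a transcription start (build GRCh38.p14) were found for 8 of the 9 members, in 11 windows, and SOCS2 is not shown. The motif TTCNNNGAA, bound by most STAT dimers, was searched on both strands, and the CISH window held 4 matches, none overlapping another. They are shown in capitals in the following stretches, both from the minus strand, because CISH is a classical target of STAT5.
CISH chr3:50611992-50612019, bases -245 to -218 from the start: cgttTTCCTGGAAagTTCTTGGAAatct
CISH chr3:50611874-50611907, bases -133 to -100 from the start: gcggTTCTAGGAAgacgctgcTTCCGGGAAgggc
At least 1 match was present in 6.57% of the 35116 windows of all starts, and 4 or more were present in 5 windows. The SOCS1 window held 1 match, searched on both strands, to GAAA followed by 2 bases of any kind and GAAA again, a core of the elements that interferon regulatory factors bind, which 3.02% of all windows held. It is in capitals in the whole window, from the minus strand.
SOCS1 chr16:11256205-11256454, bases -250 to -1 from the start: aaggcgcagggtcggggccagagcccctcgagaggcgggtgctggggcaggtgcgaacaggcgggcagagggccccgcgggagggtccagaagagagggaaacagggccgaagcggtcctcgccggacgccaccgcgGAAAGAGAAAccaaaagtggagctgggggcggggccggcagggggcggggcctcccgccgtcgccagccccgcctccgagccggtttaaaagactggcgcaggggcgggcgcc
The longer-spaced motif of TTC and GAA with 4 bases of any kind between them, which STAT6 prefers, was searched in the same way and found once among the members' windows, in the window of 1 of 3 STAT5A starts, against 5.38% of all windows. It is in capitals in the next stretch, from the plus strand.
STAT5A chr17:42287200-42287229, bases -239 to -210 from the start: ttttttttttTTCCTCTGAAgttaaaagaa
The windows of STAT2, STAT3, STAT5B, STAT6 and SOCS3 held no match to any of the 3 motifs. A match is a string of letters and not a measured binding site.

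Total counts lay between 105358357 and 150921436 reads in the DOX-positive libraries and between 87739734 and 138844816 reads in the DOX-negative libraries. MUC1, the target of the hairpin, had 1.53, 1.31 and 1.32 CPM (counts per 1000000 reads, on composition-scaled library sizes) in DOX-positive cells, against 20.4, 21.8 and 22.2 CPM in DOX-negative cells, in the direction of their labels. The epithelial genes KRT8, KRT18, EPCAM and CDH1 were detected in every library, with a summed level of 1669 to 1738 CPM in DOX-positive cells and 639 to 681 CPM in DOX-negative cells. Of 7 leukocyte and endothelial markers, CD3E had no reads in any library, and the 7 together summed to 0.540 to 0.606 CPM in DOX-positive cells and 1.39 to 1.57 CPM in DOX-negative cells. The part of either marker list in the changes of the members was not tested. As in any bulk measurement, fewer cells that express a gene and less RNA per cell cannot be told apart.

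All 9 members passed the filter on low counts and were tested. At an adjusted p under 0.05 (edgeR quasi-likelihood test, adjusted over 24695 genes), STAT3, STAT5B, STAT6 and SOCS2 rose in DOX-positive cells, STAT2, STAT5A, SOCS1 and CISH fell, and SOCS3 did not pass. That is 8 of 9 members called, against 56.5% of all genes tested and 73.9% of the 15279 genes with at least 1 CPM in 3 libraries, which include all 9 members. In either direction the background was 27.6% of genes higher and 28.9% lower, so calls of small size were common in this series. Among those 15279 genes 5751 were higher and 5543 lower, so the background was larger for well-expressed genes. SOCS1 fell and SOCS2 rose at least 2-fold, against 12.9% of all genes tested, made up of 9.38% lower and 3.56% higher. With libraries scaled by size alone STAT2, SOCS1 and CISH passed that size and SOCS2 did not, with log2 fold changes of -1.04, -1.46, -1.02 and 0.91. With upper-quartile scaling SOCS2, at 0.9986, was also just under 2-fold. The CPM of the groups did not overlap for the same 8 members, against 62.4% of all genes tested.

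**Figure D1:**
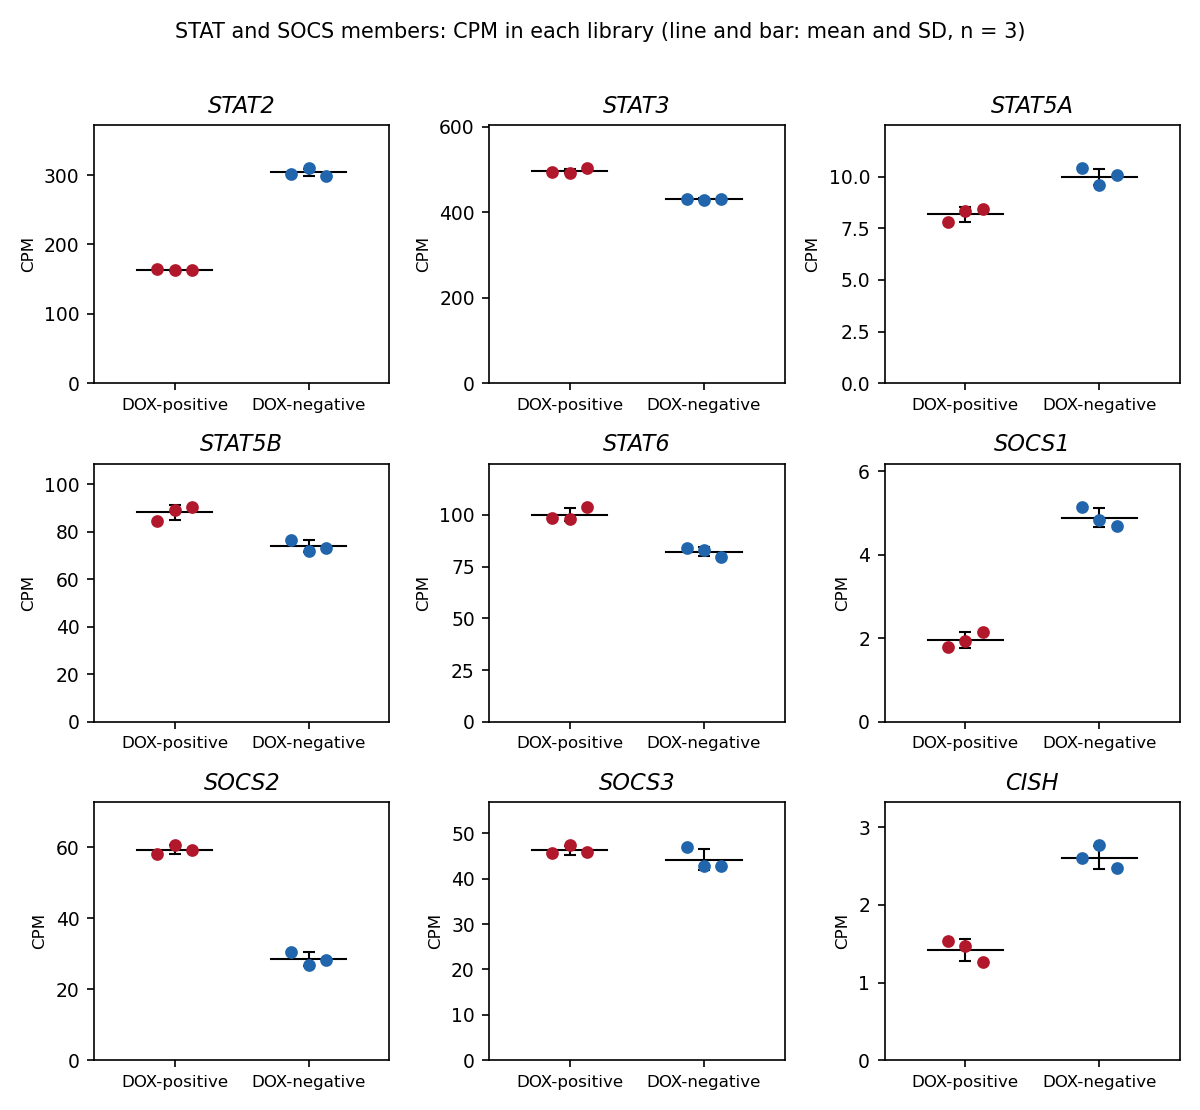
CPM (vertical axes, from 0) of the 9 members in the 3 DOX-positive (red) and 3 DOX-negative (blue) libraries, with the mean and SD as lines and bars. Points of the groups are clear of each other in every panel except SOCS3, where the DOX-positive libraries lie between 45.6 and 47.4 CPM and DOX-negative replicate 1 reaches 46.9 CPM.

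STAT2 (ENSG00000170581.14, chromosome 12, 56341597 to 56360155, minus strand, GRCh38) was the STAT member with the largest change. It had 164, 163 and 163 CPM in DOX-positive cells, against 302, 309.7 and 299 CPM in DOX-negative cells. The 3 DOX-positive libraries were nearly identical and all far below the lowest DOX-negative one. The fall was 1.86-fold (log2 fold change -0.89, SE 0.03, edgeR adjusted p = 4.63e-13). IRF9, the DNA-binding partner of STAT2, fell to 0.993 ± 0.0535 CPM in DOX-positive cells, against 1.63 ± 0.309 CPM in DOX-negative cells (SD, n = 3 each, edgeR adjusted p = 0.00163). All 5513 bases of IRF9 lie inside another protein-coding gene annotated on the same strand, and how shared reads were counted is not given in the sources used here, so its low level is uncertain.

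STAT3 (ENSG00000168610.14), the gp130-linked STAT, was the most abundant member by CPM in both groups. It had 495, 493 and 503 CPM in DOX-positive cells, against 432, 429 and 431 CPM in DOX-negative cells. The groups were apart, but by a small step of 1.15-fold (log2 fold change 0.21, SE 0.03, edgeR adjusted p = 6.32e-06). STAT5B (ENSG00000173757.10) had 84.6, 89.2 and 90.5 CPM in DOX-positive cells, against 76.6, 71.9 and 73.3 CPM in DOX-negative cells, a rise of 1.19-fold (edgeR adjusted p = 1.28e-05). STAT6 (ENSG00000166888.12) had 98.7, 97.9 and 104 CPM in DOX-positive cells, against 83.9, 82.9 and 79.8 CPM in DOX-negative cells, a rise of 1.22-fold (edgeR adjusted p = 2.3e-06). These 3 rises were of the same order as the effect of library scaling. With library size alone the median over all genes shifted by -0.14 in log2 units. The log2 fold changes of STAT3, STAT5B and STAT6 were then 0.06, 0.11 and 0.14, with edgeR adjusted p = 0.0238, 0.0104 and 0.00138. With that scaling 4689 genes were called higher and 9579 lower, against 6825 higher and 7132 lower with composition scaling.

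STAT5A (ENSG00000126561.16) went against its close relative STAT5B. It had 7.78, 8.35 and 8.42 CPM in DOX-positive cells, against 10.4, 9.59 and 10.1 CPM in DOX-negative cells, so that every DOX-positive library was below every DOX-negative one. The fall was 1.22-fold (log2 fold change -0.29, SE 0.06, edgeR adjusted p = 0.00108). The ratio of STAT5A to STAT5B within a library, on TPM (transcripts per 1000000, scaled for the gene length in the table), does not depend on library scaling. It was 0.104 ± 0.000976 in DOX-positive cells and 0.151 ± 0.00232 in DOX-negative cells (SD, n = 3 each), a difference of -0.54 on the log2 scale (SE 0.01). An exact two-sided permutation test gave p = 0.1, the smallest that 3 against 3 allows, and 0.1 after adjustment over the 3 ratios tested. Their coding sequences are highly alike, so reads from shared stretches could have been split or discarded, and both values carry that uncertainty.

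**Figure D2:**
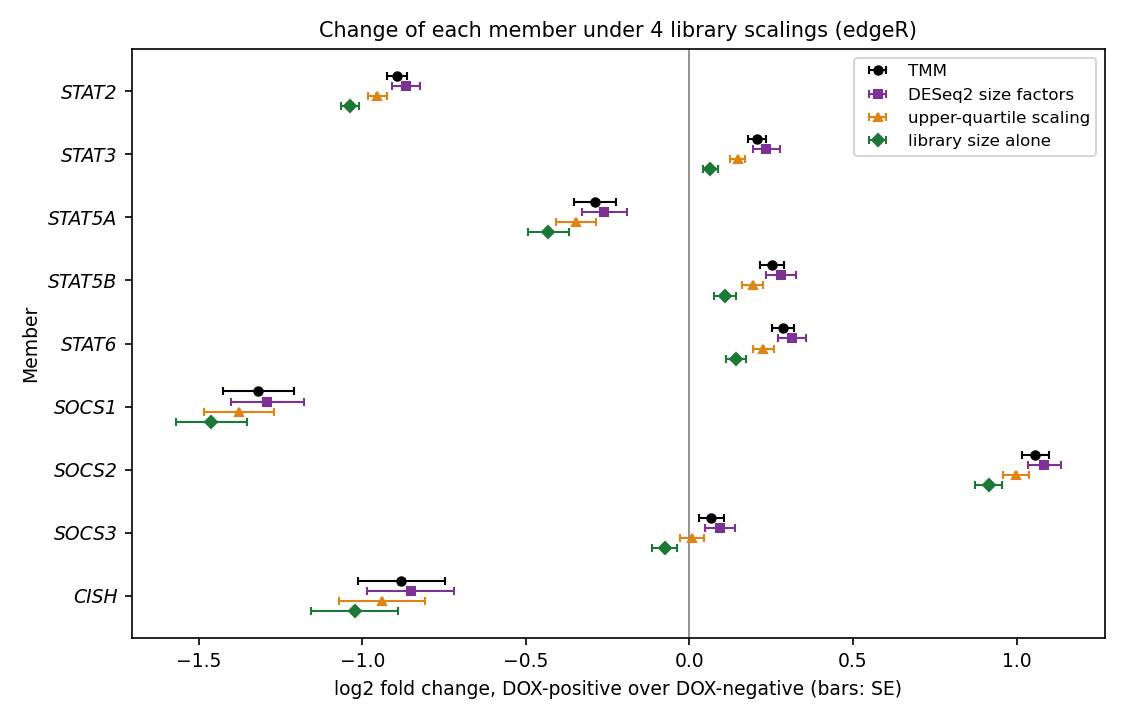
Log2 fold change of each member, DOX-positive over DOX-negative (horizontal axis, bars are SE), under 4 ways of scaling the libraries in edgeR. Points right of 0 are higher in DOX-positive cells. Each member except SOCS3 stays on its side of 0, and SOCS3 runs between 0.09 and -0.08.

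Among the feedback inhibitors, SOCS1 (ENSG00000185338.6, chromosome 16, 11254405 to 11256200, minus strand) had the largest fall. SOCS1 blocks JAK activity directly and is a main brake on IFN-gamma signalling. It had 1.79, 1.94 and 2.16 CPM in DOX-positive cells, against 5.15, 4.82 and 4.70 CPM in DOX-negative cells, from 189, 280 and 214 reads in DOX-positive and 512, 708 and 430 reads in DOX-negative libraries. No DOX-positive library came near the DOX-negative range, and the fall was 2.49-fold (log2 fold change -1.32, SE 0.11, edgeR adjusted p = 2.25e-08). Of all genes tested, 7.78% had a larger change in either direction. SOCS1 lies inside the span of RMI2 on the opposite strand, and RMI2, a subunit of a DNA repair helicase complex, rose to 35.3 ± 0.425 CPM in DOX-positive cells, against 27.6 ± 1.02 CPM in DOX-negative cells. The libraries were strand-specific, but the strand setting of the counting is not given in the sources used here, so the part of RMI2 reads in the SOCS1 value was not tested.

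CISH (ENSG00000114737.15, chromosome 3, 50606490 to 50611831, minus strand), which dampens STAT5 signalling at cytokine receptors, was the member with the fewest reads per library. It had 1.53, 1.47 and 1.26 CPM in DOX-positive cells, against 2.60, 2.77 and 2.47 CPM in DOX-negative cells, from 161, 212 and 125 reads in DOX-positive and 258, 407 and 226 reads in DOX-negative libraries. The groups did not overlap, and the fall was 1.84-fold (log2 fold change -0.88, SE 0.13, edgeR adjusted p = 2.47e-05). Its first 312 bases overlap MAPKAPK3, a stress kinase gene on the opposite strand, which rose 2.33-fold to 106 ± 1.03 CPM in DOX-positive cells, against 45.6 ± 1.23 CPM in DOX-negative cells. The part of MAPKAPK3 reads in the CISH value was not tested.

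SOCS2 (ENSG00000120833.14, chromosome 12, 93569814 to 93583487, plus strand), best known for restraining growth hormone signalling, was the inhibitor that rose. It had 58.2, 60.6 and 59.1 CPM in DOX-positive cells, against 30.5, 26.8 and 28.3 CPM in DOX-negative cells. The lowest DOX-positive library was well above the highest DOX-negative one. The rise was 2.08-fold (log2 fold change 1.06, SE 0.04, edgeR adjusted p = 2.65e-12), and 12.5% of all genes tested had a larger change in either direction. The antisense gene SOCS2-AS1, which shares 1955 bases with it, rose 1.68-fold to 11.0, 11.5 and 11.0 CPM in DOX-positive cells, against 6.71, 6.60 and 6.64 CPM in DOX-negative cells (edgeR adjusted p = 2.18e-08). Whether reads of the pair were kept apart by strand was not tested.

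SOCS3 (ENSG00000184557.4), the inhibitor that gp130 signalling induces through STAT3, had 45.6, 47.4 and 45.9 CPM in DOX-positive cells, against 46.9, 42.9 and 42.8 CPM in DOX-negative cells. The groups overlapped because DOX-negative replicate 1 lay among the DOX-positive values. Its log2 fold change, 0.07, did not pass (SE 0.04, edgeR adjusted p = 0.153). Without DOX-negative replicate 1 it was 0.13 with an edgeR adjusted p of 0.0106, and with library size alone it was -0.08 with an edgeR adjusted p of 0.11, so neither a direction nor a lack of change was shown for SOCS3.

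Ratios of related inhibitors were also taken within each library. As for STAT5A and STAT5B, the size of a ratio depends on the gene lengths in the table, while the log2 difference between the groups does not. The TPM ratio of SOCS1 to SOCS3 was 0.0598, 0.0622 and 0.0716 in DOX-positive cells, against 0.167, 0.171 and 0.167 in DOX-negative cells. This was a log2 difference of -1.39 (SE 0.08), and no library of one group entered the range of the other. The TPM ratio of SOCS2 to CISH, both STAT5 targets, was 30.1, 32.6 and 37.0 in DOX-positive cells, against 9.26, 7.62 and 9.05 in DOX-negative cells, a log2 difference of 1.94 (SE 0.12). Both ratios gave p = 0.1 by the exact two-sided permutation test, also the smallest that 3 against 3 allows.

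**Figure D3:**
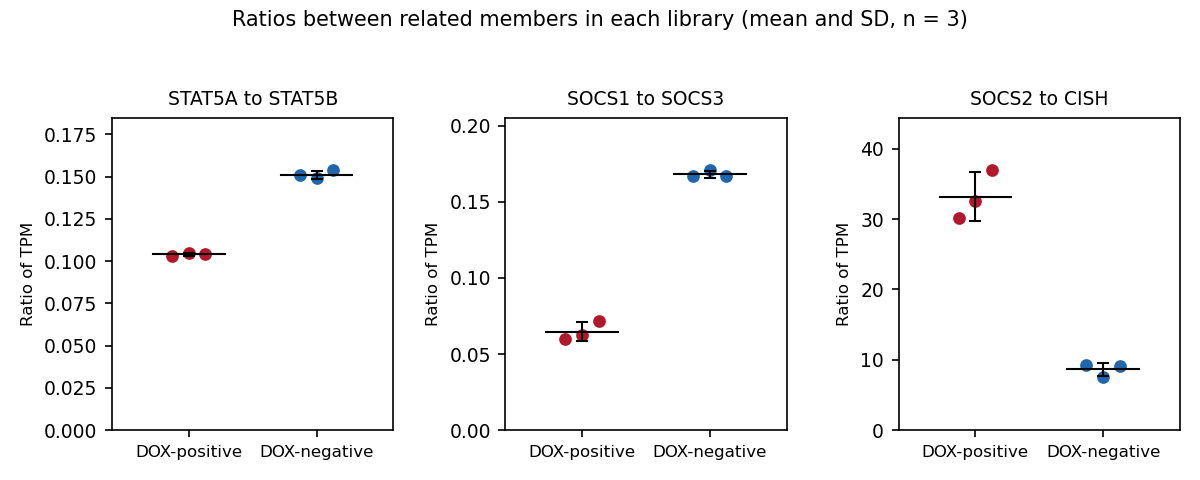
Ratio of TPM between related members (vertical axes, from 0) in each DOX-positive (red) and DOX-negative (blue) library, with the mean and SD of each group. STAT5A to STAT5B and SOCS1 to SOCS3 are lower in all 3 DOX-positive libraries, and SOCS2 to CISH is higher in all 3.

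Levels of different genes were compared per length, in TPM. The order depends on the gene lengths in the table, which need not be those of the transcripts present. For CISH that length was 5112 bases, in a gene that spans only 50606490 to 50611831. In DOX-positive cells the order was STAT3 (181 ± 3.13 TPM), STAT2 (84.5 ± 0.881), SOCS3 (54.3 ± 1.95), STAT6 (44.0 ± 1.58), STAT5B (43.9 ± 2.11), SOCS2 (29.4 ± 1.07), STAT5A (4.56 ± 0.258), SOCS1 (3.51 ± 0.355) and CISH (0.890 ± 0.0846 TPM, SD, n = 3). STAT6 and STAT5B overlapped, and every other pair of neighbours in that order was apart. In DOX-negative cells STAT2 (183 ± 5.27 TPM) and STAT3 (182 ± 8.07 TPM) overlapped at the top, followed by SOCS3 (60.3 ± 5.29), STAT5B (42.8 ± 3.05), STAT6 (42.0 ± 2.09), SOCS2 (16.4 ± 1.71), SOCS1 (10.2 ± 0.803), STAT5A (6.49 ± 0.508) and CISH (1.90 ± 0.0788 TPM). There too only STAT5B and STAT6 overlapped among the others. STAT3 thus stood 2.14 times above STAT2 in DOX-positive cells, while they overlapped in DOX-negative cells, and STAT5A and SOCS1 changed places. TPM carries no composition factor, and on that scale the groups overlapped for STAT3, STAT5B, STAT6 and SOCS3 and were apart for the other 5 members.

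**Figure D4:**
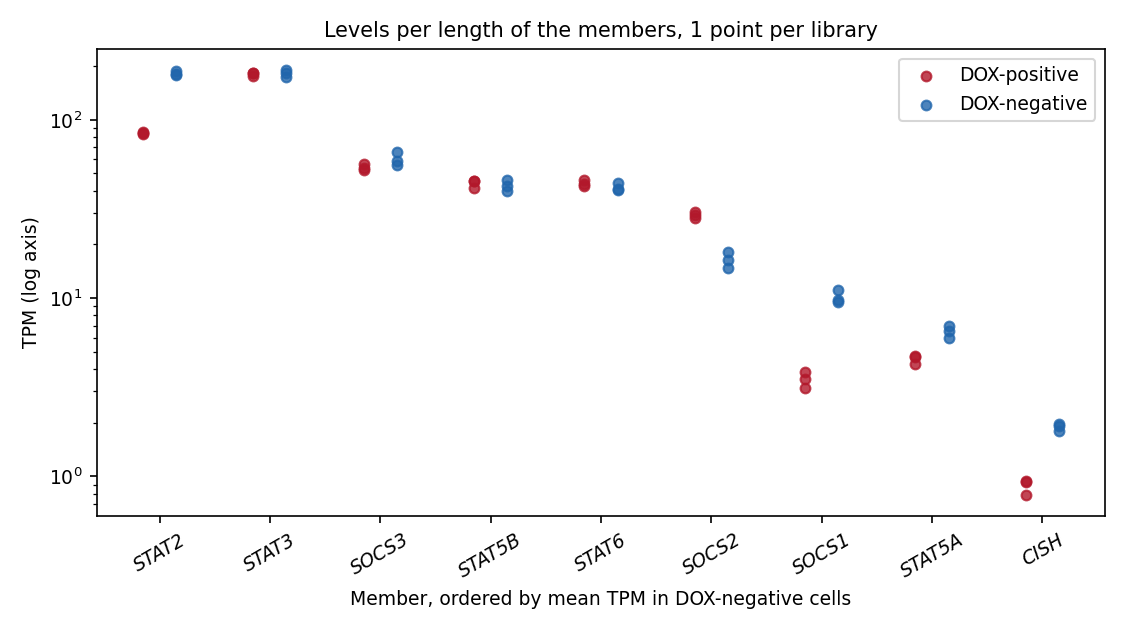
TPM of each member on a log axis, 1 point per library, DOX-positive in red to the left of DOX-negative in blue. STAT2, SOCS1, STAT5A and CISH sit lower and SOCS2 higher in DOX-positive cells, while the points of STAT3, SOCS3, STAT5B and STAT6 overlap between the groups.

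The other SOCS genes fell, while most of the ligase subunits that a SOCS box recruits rose. SOCS4, SOCS5, SOCS6 and SOCS7 all fell, by 0.36, 0.42, 0.17 and 0.21 on the log2 scale, 4 of 4 against 28.9% of all genes tested. Among the 15279 genes with at least 1 CPM in 3 libraries, 5751 were higher and 5543 lower. SOCS5, a regulator of EGF receptor signalling, had 33.9, 33.7 and 34.8 CPM in DOX-positive cells, against 46.5, 42.0 and 48.2 CPM in DOX-negative cells (edgeR adjusted p = 5.2e-07). Of 6 such partners 4 rose and none fell, against 27.6% of all genes tested higher and 28.9% lower. Their median was 0.21 on the log2 scale against -0.04 over all genes tested, but with library size alone 2 rose and 1 fell. The adaptor subunits ELOB and ELOC rose by 0.67 and 0.57. ELOB shares 1125 bases with SRRM2 on the opposite strand, which had 838 CPM in DOX-positive and 667 CPM in DOX-negative cells. The part of SRRM2 reads in the ELOB value was not tested. RBX1 and RNF7, the RING subunits, rose by 0.24 and 0.18 and lost their calls with library size alone (edgeR adjusted p = 0.211 and 0.47). RNF7 shares 9087 bases with AC112504.2, a protein-coding gene annotated on the same strand, which had 0 CPM in both groups. How shared reads were counted is not given, so the RNF7 level is uncertain. The scaffolds CUL5 and CUL2 had log2 fold changes of 0.08 and 0.02 and did not pass. With library size alone they were -0.07 and -0.13, and CUL2 was called lower (edgeR adjusted p = 0.00427). CUL5 passed as higher without DOX-positive replicate 1 and without DOX-negative replicate 3, at 0.12 and 0.13.

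Other inhibitors of the pathway went both ways. Of 12 tested, 4 rose and 6 fell (median on the log2 scale -0.04). The background was 27.6% of all genes tested higher and 28.9% lower. Genes with at least 1 CPM in 3 libraries numbered 15279, of which 5751 were higher and 5543 lower. The tyrosine phosphatases PTPN11, PTPN1 and PTPN2, the last 2 of which act on JAKs and STATs, rose by 0.39, 0.34 and 0.24 on the log2 scale. PTPN11 shares 488 bases with RPL6 on the opposite strand, which had 535 CPM in DOX-positive and 518 CPM in DOX-negative cells. The part of RPL6 reads in the PTPN11 value was not tested. USP18, which restrains the type I interferon receptor, fell to 23.4 ± 0.422 CPM in DOX-positive cells, against 31.1 ± 0.959 CPM in DOX-negative cells (edgeR adjusted p = 1.06e-07). Of 9 partners and coactivators of STATs, 2 rose (22.2%) and 6 fell (66.7%), with a median of -0.20, and with library size alone 1 rose. The background was again 27.6% of all genes tested higher and 28.9% lower. The coactivators NCOA3 and EP300 fell by 0.81 and 0.25, the STAT-binding protein NMI fell by 0.33, and SND1 rose by 0.45.

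Upstream of the STATs, 11 of 23 kinases and receptor chains rose and 11 fell (median on the log2 scale -0.03). That is 47.8% each way, against 27.6% of all genes tested higher and 28.9% lower. Among the 15279 genes with at least 1 CPM in 3 libraries, 5751 were higher and 5543 lower. For the kinases and receptor chains, scaling by upper quartile left 7 that rose and library size alone left 6. IL6R, the interleukin-6 receptor chain that leads to STAT3, rose 2.27-fold to 58.6 ± 1.92 CPM in DOX-positive cells, against 25.9 ± 1.03 CPM in DOX-negative cells (edgeR adjusted p = 2.15e-13). EGFR, which can also activate STAT3 and STAT5, rose 1.86-fold to 1704 ± 28.4 CPM in DOX-positive cells, against 916 ± 27.8 CPM in DOX-negative cells. IFNGR1, the ligand-binding chain for IFN-gamma, and LEPR, the leptin receptor, fell by 1.21 and 0.74. LEPROT, which shares 15356 bases with LEPR on the same strand, had 190.3 CPM in DOX-positive and 104 CPM in DOX-negative cells. The part of LEPROT reads in the LEPR value was not tested. Among 22 cytokines that signal through these STATs, 13 were too low to test, 3 rose and 4 fell (median -0.25). Of those tested, 33.3% rose and 44.4% fell, against the same 27.6% of all genes tested higher and 28.9% lower. The gp130 cytokines IL6 and IL11 fell 2.05-fold and 3.22-fold, LIF rose 1.25-fold, and IL24, a ligand of receptors that use STAT3, rose 2.65-fold to 14.6 ± 0.0715 CPM in DOX-positive cells, against 5.51 ± 0.469 CPM in DOX-negative cells.

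Downstream, textbook targets of STAT3 were split, with 7 of 15 tested genes higher and 7 lower (median on the log2 scale -0.27). That is 46.7% each way, against 27.6% of all genes tested higher and 28.9% lower. Among the 15279 genes with at least 1 CPM in 3 libraries, 5751 were higher and 5543 lower. FOS, an AP-1 subunit, fell 4.23-fold to 21.7, 21.8 and 23.6 CPM in DOX-positive cells, against 97.4, 95.3 and 91.2 CPM in DOX-negative cells. LCN2, a siderophore-binding protein of the acute phase, fell 2.74-fold, while the hypoxia factor HIF1A and cyclin D1 (CCND1) rose by 0.76 and 0.64 on the log2 scale. Of 8 STAT5 targets tested other than CISH and SOCS2, 3 rose and 1 fell (median 0.01), and with library size alone 2 rose and 2 fell. CCND1, the kinase PIM1 and the survival gene BCL2L1 rose by 0.64, 0.32 and 0.18, and ID1, an inhibitor of helix-loop-helix factors, fell by 0.55. BCL2L1 lost its call with library size alone (edgeR adjusted p = 0.253). Of 15 STAT6 targets 10 were too low to test, 3 rose and 1 fell (median 0.35), and without DOX-negative replicate 2 the count was 5 that rose and 0 that fell. For the STAT5 and STAT6 targets too, the background was 27.6% of all genes tested higher and 28.9% lower. TGM2, a transglutaminase, rose 1.82-fold to 3302 ± 36.4 CPM in DOX-positive cells, against 1810.5 ± 93.1 CPM in DOX-negative cells. CDH26, a cadherin of inflamed epithelium, rose by 0.73 (SE 0.20) at a low level. It had 0.866 ± 0.0406 CPM in DOX-positive cells, against 0.525 ± 0.0711 CPM in DOX-negative cells. The receptor chain IL4R rose by 0.18, a call lost with library size alone (edgeR adjusted p = 0.346). ALOX15, a lipoxygenase, was called lower from 4, 4 and 6 reads in DOX-positive libraries, against 10, 20 and 12 reads in DOX-negative libraries. The ALOX15 call was lost in 6 of the alternative fits. These included the fits without DOX-positive replicate 1 or 2 and without DOX-negative replicate 2 or 3, with the edgeR adjusted p as high as 0.0962.

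Across these 9 lists together, 33 of 86 tested genes rose and 40 fell, which is 84.9% called. This compares with 88.9% of the members, 56.5% of all genes tested and 73.9% of those with at least 1 CPM in 3 libraries. With library size alone 23 of the 33 and 40 of the 40 kept their calls.

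**Figure D5:**
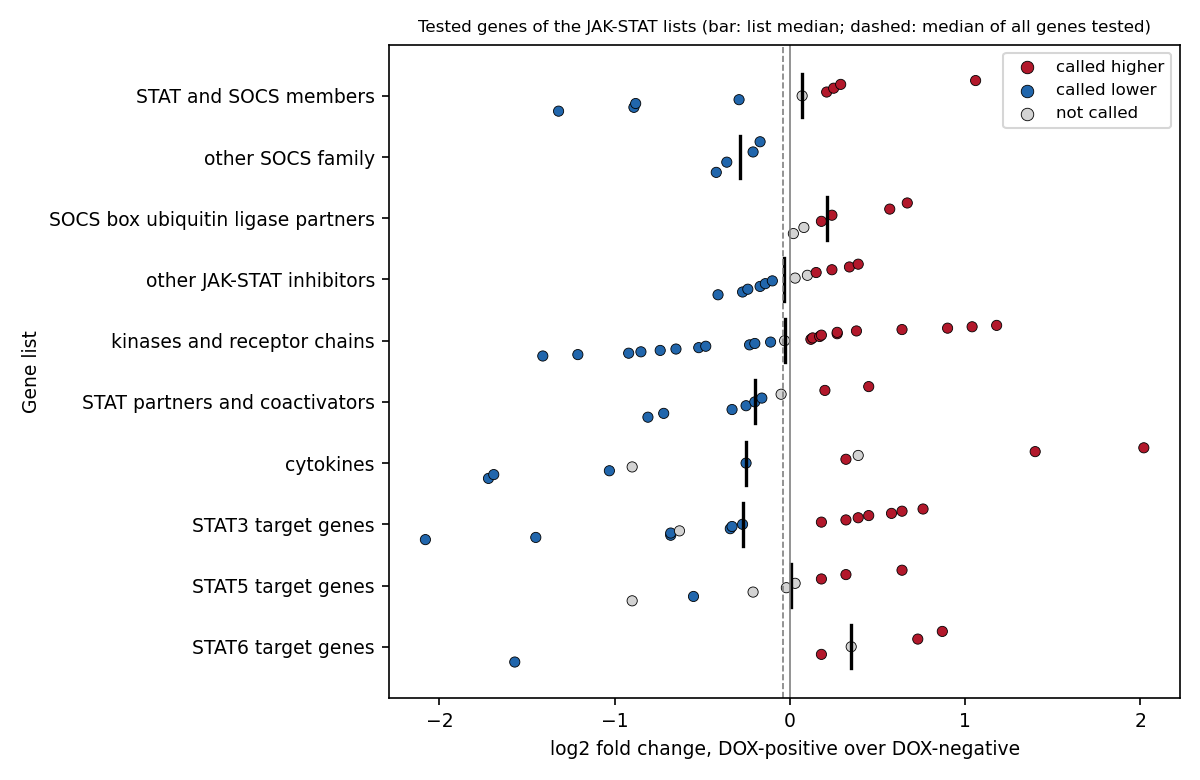
Log2 fold change, DOX-positive over DOX-negative (horizontal axis), of every tested gene of each list, with called genes in red (higher) or blue (lower) and the list median as a bar. The 4 other SOCS genes are all left of 0, with composition scaling the SOCS box partners lie right of 0, and each remaining list has genes on both sides.

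Genes on either side of the members differed in both directions. STAT5B, STAT5A and STAT3 lie side by side on chromosome 17, with 10840 and 1381 bases between them, and STAT5A, which fell, lies between 2 genes that rose. CAVIN1, a caveolar coat protein beyond STAT3, rose by 0.84 and GHDC beyond STAT5B fell by 0.55 on the log2 scale. On chromosome 12, IL23A, a cytokine subunit 1187 bases from STAT2, fell by 0.74, and APOF, 414 bases away on the other side, had a log2 fold change of -0.01 from 0.110 CPM in DOX-positive and 0.113 CPM in DOX-negative cells. STAT6 overlaps the ends of NAB2 and LRP1 on the opposite strand, and these fell by 0.60 and 0.80. LRP1 shares 3647 bases with STAT6 and had 162 CPM in DOX-positive and 281 CPM in DOX-negative cells. The part of NAB2 and LRP1 reads in the STAT6 value was not tested. The STAT6 neighbours NEMP1 and NXPH4 had values of 0.07 and 0.13 that did not pass. NEMP1 passed without DOX-negative replicate 3 (edgeR adjusted p = 0.0204) and NXPH4 without DOX-negative replicate 1 (edgeR adjusted p = 0.0318). MRPL42, next to SOCS2, fell by 0.94 and CRADD on the other side had -0.16, which passed only with library size alone (-0.31, edgeR adjusted p = 0.029). CLEC16A near SOCS1 rose by 0.28 and PGS1 near SOCS3 rose by 0.33, while HEMK1 and DOCK3 beside CISH fell by 0.52 and 0.28. TNP2 and TMEM235, the remaining neighbours of SOCS1 and SOCS3, were too low to test.

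Of the 86 pathway genes outside the members, the one closest in pattern was found for each member as the smallest root mean square distance between log2 CPM values (0.5 reads added), centred on the gene's mean, over 6 libraries. The distances were small for STAT6 and IFNGR2 (0.021), STAT3 and BCL2L1 (0.022), STAT5A and NMI (0.030), STAT5B and IL6ST (0.030) and SOCS3 and PIM2 (0.035). They were larger for STAT2 and NCOA3 (0.071), SOCS2 and IL6R (0.074), SOCS1 and GHR (0.085) and CISH and LEPR (0.120). The 6 libraries fall into 2 groups, so this distance mostly reflects how alike the changes between the groups were, as for SOCS1 (-1.32) and GHR (-1.41).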

How the data were processed

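RNA of 6 cultures of DU-145 cells was sequenced from TruSeq Stranded mRNA libraries, per the labels' protocols. The deposited table holds raw read counts per gene and library, made by the authors, with a gene length in bases. The build GRCh38.p7 and the tools CASAVA 1.8.2, DESeq2 1.24.0 and STAR 2.7.9a appear in the submitters' processing notes. How reads were counted, with which strand setting and rule for shared reads, is not given in the sources used here. All ALOX15 counts and many other low counts were even numbers, so whether 1 fragment could count as 2 reads is uncertain. Groups and replicate numbers come from the sample titles. The labels name triplicate cultures only, so p-values reflect only how these cultures vary. Chi-square per degree of freedom between replicates was 6.40 to 20.8, so no 2 libraries agreed within sampling noise.

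Genes passing filterByExpr (minimum count 10, minimum total 15) were tested in R 4.3.3 by edgeR 4.0.16 (quasi-likelihood test, a model of group alone), with TMM scaling and Benjamini-Hochberg adjustment at 0.05. SE was computed as |log2 fold change| over the root of F. A count of 3 reads corresponds to 0.0204 to 0.0328 CPM, counting error only. TPM uses the deposited gene length. Among the symbols 14 had become dates and 66 genes had none (0.000516% of reads), and these were replaced from the gene ID where possible. Positions are from GENCODE 29 (GRCh38), promoter windows from RefSeq (GRCh38.p14). The test was checked on simulated counts in which few genes changed, so that check does not bear on the effect of library scaling. The members, the lists and the naming rule were chosen with earlier results of these data known. The rule named MUC1, the members, up to 4 genes per list with the smallest p, the closest gene in pattern, and neighbouring and antisense genes. CUL5, CUL2, IRF9, CD3E and the overlapping genes were named after their values were seen. The fit was repeated with other scalings (upper quartile, DESeq2 size factors, library size alone), other filters (none, or 1 CPM or more in 3 libraries), other tools (limma-voom in limma 3.58.1, DESeq2 1.42.0 with its Wald test), a block for replicate number, and without each library.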

Additional observations from a re-analysis of the deposited data

How the results depend on the processing

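STAT2, STAT3, STAT5A, STAT5B, STAT6, SOCS1, SOCS2 and CISH kept their direction and stayed past the threshold under each of the 14 alternatives to the edgeR fit. Their log2 fold changes ranged from -1.04 to -0.87 for STAT2, 0.06 to 0.23 for STAT3, -0.43 to -0.24 for STAT5A, 0.11 to 0.30 for STAT5B, 0.14 to 0.32 for STAT6, -1.46 to -1.25 for SOCS1, 0.91 to 1.13 for SOCS2 and -1.02 to -0.80 for CISH. SOCS3 was -0.08 with library size alone and ran from 0.04 to 0.13 when 1 library was left out, passing only without DOX-negative replicate 1. The cause was not tested.

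No pairing of the samples by replicate number was seen. Correlations of deviations from the group means were -0.218, -0.0708 and 0.0173 for numbers 1, 2 and 3, and no library correlated best with its own number. With the replicate block 6670 genes were higher and 6833 lower, no member's call changed, and the exact test on the 3 ratios could not go below p = 0.25. With CPM in place of TPM, 5 members in DOX-positive and 3 members in DOX-negative cells kept their rank. Among genes that did not pass, the sign turned for NEMP1 (-0.07), NXPH4 (-0.01) and CUL5 (-0.07) with library size alone, for CUL2 with upper-quartile scaling (-0.04), library size alone (-0.13, where it was called lower) and at least 1 CPM in 3 libraries (-0.02), for PIM2 with upper-quartile scaling (-0.02), library size alone (-0.11) and at least 1 CPM in 3 libraries (-0.00), and for APOF with DESeq2 size factors (0.02), no filter (0.00), the DESeq2 Wald test (0.00) and 3 of the 6 fits without a library (-0.34 to 0.19 over all 6). Without a filter CUL5 and NEMP1 passed as higher, and NEMP1 also did with the DESeq2 Wald test. CISH and SOCS1, the members with the lowest CPM, had the largest SEs among the members, 0.13 and 0.11, and the share of counting error in them was not tested.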
